A study of Arabidopsis thaliana with 16 samples.

Results

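The transcripts described here are 75 probe sets whose signal in the gynoecium was well below wild type both in the ant single mutant and in the seu ant double mutant, while the seu single mutant stayed near wild type. They were selected on those same genotype means, out of 22746 probe sets, with no use of the spread between arrays. A probe set was kept when its mean log2 signal was at least 7 in wild type, at least 0.6 lower in ant and in seu ant, and within 0.4 of wild type in seu. Of the 77 probe sets that met these limits, VDD and IAA18 were left out by name, and 5 further genes named for leaving out did not meet them. The members stand for 42 genes with 1 probe set each, 4 probe sets that are paired with several genes, and 29 probe sets that are paired with no gene in the annotation used here and are given by their array identifiers.

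The plants were Col-0 (wild type), the mutants seu-3 (seu) and ant-1 (ant), and the double mutant with both alleles (seu ant). Their gynoecia were cut out by hand at floral stages 8 to 10, pooled 15 to 25 at a time, and hybridised to ATH1 arrays, 1 pool per array and 4 arrays per genotype. All 4 genotypes were grown and dissected alike, and the mutants carry their alleles in every cell of the plant. Array medians on the linear signal scale ran from 179.2 to 188.6 in wild type and from 167.7 to 187.9 in seu. In ant they ran from 153.1 to 173.6 and in seu ant from 167.4 to 177.7, all below wild type. The SEU probe set differed from wild type by -1.72 in seu and -1.82 in seu ant on the log2 scale (limma adjusted p = 0.000274 and 1.01e-05), which goes with the labels. The transcript of ANT is not analysed here by name. Which genes the unpaired probe sets measure is not known here, so ANT, the gene that ant-1 alters, could be among them.

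ANT encodes a transcription factor with AP2 domains that keeps young organs proliferating, and SEU encodes a transcriptional adaptor that works with LEUNIG and with DNA-binding partners. In the gynoecium both act in the carpel margin meristem, the medial ridge of tissue that gives rise to the placenta, the ovules, the septum, the style and the stigma. Ovules are initiated in each single mutant, in nearly wild-type number in seu and in reduced number in ant. They are not initiated in plants that lack both functions, and ovules of ant plants lack integuments. In pooled gynoecia, fewer cells of a type and less RNA per cell cannot be told apart.

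Across the members, the median difference from wild type was -0.83 in ant and -0.87 in seu ant on the log2 scale, which leaves a median signal of 56.2% and 54.6% of wild type. These differences chose the members and are a description only. The mildest difference was -0.60 in either genotype because the rule cut there, and the deepest were -2.26 in ant and -5.70 in seu ant. Falls of more than 1 log2 unit were held by 27 members in ant and by 30 in seu ant. The median over all probe sets was -0.02 in ant and -0.03 in seu ant. Over those with a wild-type mean of at least 7 it was -0.04 and -0.12.

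The loss was seen on each ant and seu ant array. The same arrays chose the members, so the medians by array are a description only. Taken array by array, the median of the members lay between -1.08 and -0.73 of the wild-type mean on the ant arrays and between -1.04 and -0.86 on the seu ant arrays. The seu arrays lay between -0.30 and -0.15 and the wild-type arrays between -0.08 and 0.05. The ant and seu ant arrays overlapped with each other and with no seu array in this median. On the same arrays the median over all 22746 probe sets stayed between -0.07 and 0.00. At least 72 of the 75 members were below their wild-type mean on each ant and seu ant array.

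**Figure D1:**
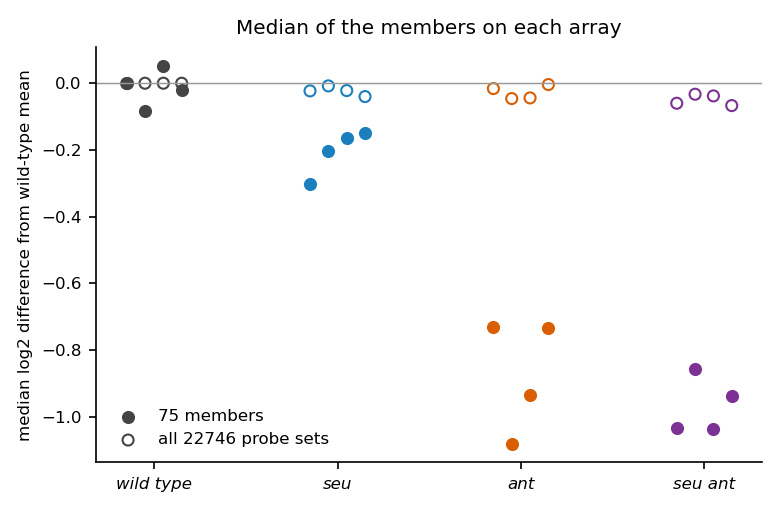
Median log2 difference from the wild-type mean on each of the 16 arrays, for the 75 members (filled) and for all 22746 probe sets (open), by genotype. The ant arrays lie between -1.08 and -0.73 and the seu ant arrays between -1.04 and -0.86, while the medians over all probe sets stay near 0. The members were chosen on these same arrays.

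How many members also passed a test that uses the spread between arrays is again a description, since the rule used the same contrasts. A call needed a log2 difference over 0.35 and an adjusted p under 0.05 in limma's moderated test over all probe sets. By this measure 49 members were called lower in ant, where 3.03% of all probe sets were, and 62 were called lower in seu ant, where 11.4% of all were. The count for ant fell to 29 without wild-type replicate 1 or ant replicate 3, to 32 without ant replicate 2, to 30 with each array centred on its median, and to 22 with only ant and wild type in the fit. Both calls were made for 46 members and neither for 10. All 4 ant arrays lay below all 4 wild-type arrays for 60 members against 6.77% of all probe sets, and all 4 seu ant arrays did for 58 members against 13.1% of all. Against seu, 44 members were called lower in seu ant, where 5.5% of all probe sets were.

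The name under which these transcripts were grouped, losses independent of SEU, goes further than the values do. No member was called changed in seu, against 2.19% of all probe sets, but the window of 0.4 was a condition of membership, and at an unadjusted p under 0.05 there were 9 members lower in seu and none higher, against a background over all probe sets of 7.35% lower and 6.02% higher. In seu 62 members lay below wild type and 13 above, with a median of -0.22, against -0.02 over all probe sets and -0.03 over those with a wild-type mean of at least 7. The wild-type arrays in this difference are also those of the 2 differences that chose the members, so nothing is read from that tilt. The 95% interval of the seu difference lay wholly within 0.4 of wild type for 3 members, and it reached below -0.6 for 47. The transcripts are therefore called here by their rule, as losses in ant and seu ant with seu near wild type.

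**Figure D2:**
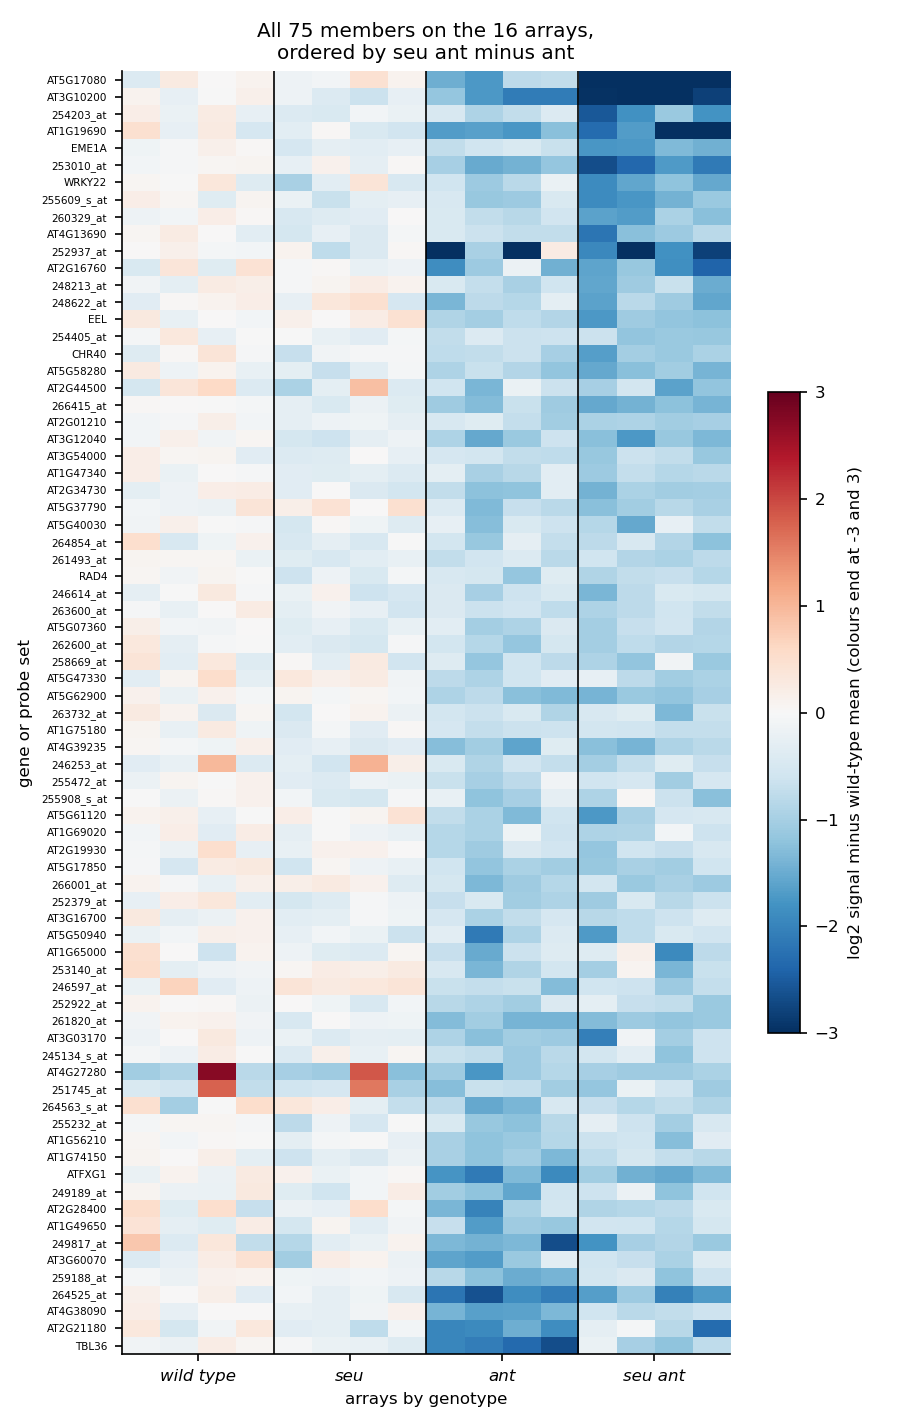
Log2 signal minus the wild-type mean for the 75 members (rows) on the 16 arrays (columns, by genotype), ordered from the most negative to the most positive difference between seu ant and ant. Blue is below wild type, and the colour scale ends at -3 and 3. The ant and seu ant columns are blue throughout most rows, and AT4G27280 and 251745_at stand out through 1 wild-type and 1 seu array.

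Whether the second mutation changed the level already reached in ant was asked by comparing seu ant with ant. The rule set the same limit for both genotypes and so does not fix the sign of this difference, but it used both means, and a member with a small loss in ant could hardly be higher in seu ant and still belong. The counts are therefore set beside those of all probe sets and nothing more is read from them. Of the 75 members, 11 (14.7%) were called lower in seu ant than in ant, and 4 (5.33%) were called higher. The first count was 7 without ant replicate 1, 3 or 4 and with only the 2 genotypes in the fit, and the second was 2 without ant replicate 2 or 4 or seu ant replicate 2. Among all probe sets 9.32% were called lower and 9.7% higher, and among the 12302 probe sets with a wild-type mean of at least 7 these shares were 16.0% and 11.6%. All seu ant arrays were below all ant arrays for 9 members (12.0%, against 11.2% of all probe sets) and above them for 3 (4.0%, against 10.4%). The median difference between seu ant and ant was -0.08 over the members, -0.00 over all probe sets and -0.09 over those with a wild-type mean of at least 7.

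If the effects of seu-3 and ant-1 simply added up on the log2 scale, the double mutant would show the sum of both single-mutant differences, and the departure from that sum was computed in the same fit. It is made of the 4 genotype means that chose the members, so its values and calls, also those of single members given below, are a description. It was called below additive for 2 members (2.67%) and above additive for 3 (4.0%), at an adjusted p under 0.05. Over all probe sets 2.33% were called below and 2.78% above, and over those with a wild-type mean of at least 7 the shares were 4.11% and 3.91%. At an unadjusted p under 0.05 the counts were 7 and 9, where 10.1% of all probe sets were below and 10.4% above. Only 1 member was below additive without wild-type replicate 1 or 4, ant replicate 3, seu replicate 2, 3 or 4, or seu ant replicate 1 or 2. Without seu ant replicate 3 there were 4 below and 5 above. Median centring, and leaving out dim probe sets, also gave 4 below.

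**Figure D3:**
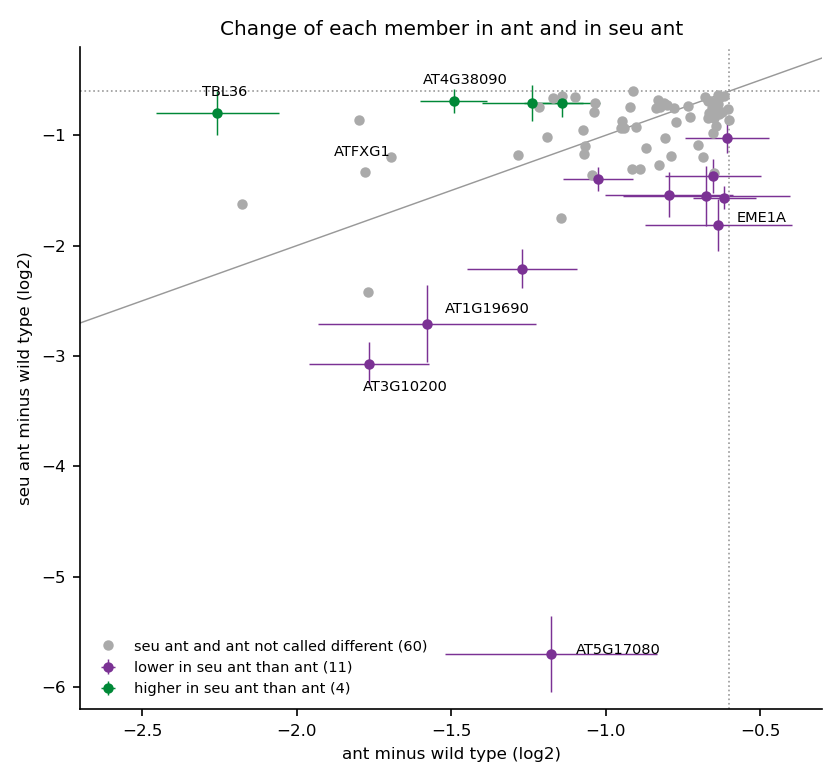
Log2 difference from wild type in ant (horizontal axis) and in seu ant (vertical axis) for the 75 members, with standard errors for the 15 that were called different between ant and seu ant. Dotted lines mark the limit of -0.6 that the rule set, and the solid line marks equal values. Of the called members, 11 lie below the line and 4 above it.

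Deepest of all was the loss of AT5G17080, annotated as cathepsin-related, that is, as a relative of the cysteine proteases that degrade proteins in the vacuole and lysosome. Its log2 signal was 10.23, 10.91, 10.65 and 10.74 on the wild-type arrays and 10.47, 10.55, 11.10 and 10.74 on the seu arrays. It was 9.17, 8.90, 9.85 and 9.90 in ant, and 4.42, 4.24, 5.96 and 5.11 in seu ant. Wild type and seu overlapped, the ant arrays lay below both, and the seu ant arrays lay far below ant with no overlap. This left 44.2% of the wild-type signal in ant and 1.93% in seu ant. The difference between seu ant and ant was -4.52 ± 0.34 (SE, n = 4 arrays each, limma adjusted p = 6.94e-06), and the departure from additive was -4.60 ± 0.48 (adjusted p = 0.00117). In ant its difference from wild type of -1.18 was not called (adjusted p = 0.0668), whereas in the double mutant hardly any signal was left.

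AT5G17080 belongs to a list of 16 cysteine proteases and cystatins, their protein inhibitors, of which 11 had a probe set paired with 1 gene. In this list 3 genes, AT1G03720, CYS3 and CYS4, were called lower in ant and none higher, and in seu ant 3 were called lower and 2 higher, with a median difference from wild type of -0.28 in ant and -0.07 in seu ant. The 3 lower in seu ant were AT5G17080, a second gene annotated as cathepsin-related, AT1G03720, and the cystatin-related gene AT1G03710. AT1G03720 had a mean log2 signal of 10.18 in wild type and 9.07 in seu, against 8.60 in ant and 5.32 in the double mutant, and its seu difference of -1.11 kept it out of the members. AT1G03710 differed from wild type by 0.06 in ant and by -1.78 in seu ant. The cystatin gene CYS5 and the protease gene RD21A were the 2 called higher in seu ant, and the cystatin gene CYS4 differed from wild type by -1.46 in ant and by -0.07 in seu ant.

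AT3G10200, annotated as related to a dehydration-responsive protein, was the member with the next largest further loss. Its log2 signal was 9.47, 9.12, 9.35 and 9.51 in wild type, 9.20, 8.96, 8.72 and 9.12 in seu, 8.20, 7.64, 7.28 and 7.27 in ant, and 6.39, 6.07, 6.14 and 6.57 in seu ant. Every seu ant array lay below every ant array, and every ant array below every seu array. The signal was 29.4% of wild type in ant and 11.9% in seu ant, and seu ant was lower than ant by -1.30 ± 0.19 (SE, limma adjusted p = 0.000468). The departure from additive was -0.94 ± 0.27 and was not called (adjusted p = 0.0653).

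EME1A encodes a subunit of the structure-specific endonuclease formed with MUS81, which resolves branched DNA during recombination and repair. Its values were tight within each genotype. They were 8.94, 9.03, 9.23 and 9.11 in wild type, 8.58, 8.80, 8.76 and 8.83 in seu, 8.34, 8.48, 8.61 and 8.42 in ant, and 7.32, 7.34, 7.74 and 7.63 in seu ant. No seu array reached the lowest wild-type array, and the seu and ant arrays overlapped slightly. The seu ant arrays lay by themselves at the bottom, with a difference from ant of -0.95 ± 0.10 (SE, adjusted p = 5.57e-05) and a departure from additive of -0.62 ± 0.14 (adjusted p = 0.031). Of the members called below additive, EME1A had a larger adjusted p than AT5G17080 (limma adjusted p = 0.00117). Without some single arrays, named above, only 1 member was called below additive. In seu the 95% interval of its difference from wild type ran from -0.56 to -0.11, so a small loss in seu lies within the window that the rule allowed.

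AT1G19690, annotated as a coenzyme-binding catalytic protein, and WRKY22, a WRKY transcription factor known from immune signalling, were also lower in seu ant than in ant. AT1G19690 was 7.92, 7.20, 7.72 and 6.95 in wild type, 7.13, 7.49, 6.99 and 6.86 in seu, 5.77, 5.82, 5.70 and 6.19 in ant, and 5.14, 5.77, 4.00 and 4.05 in seu ant. The values of 4.00 and 4.05 are at or near the floor of log2(16), 1 seu ant array reached the ant range, and the difference of -1.13 ± 0.35 (adjusted p = 0.0365) is not called with a floor of 32, with only ant and seu ant in the fit, without any single ant array, or without seu ant replicate 3 or 4. WRKY22 was 7.73, 7.65, 8.02 and 7.29 in wild type, 6.69, 7.36, 8.07 and 7.20 in seu, 7.08, 6.59, 6.85 and 7.46 in ant, and 5.78, 6.11, 6.46 and 6.14 in seu ant. Its seu and ant arrays overlapped with wild type, and only the seu ant arrays were separate from the rest. The difference between seu ant and ant was -0.87 ± 0.27 (adjusted p = 0.0354), and the call is lost without ant replicate 1, 3 or 4 or seu ant replicate 1, 2 or 4.

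Of the 11 members that were lower in seu ant than in ant, 6 are paired with no single gene here, and whether ANT is among their genes is not known. The brightest were 266415_at and 253010_at, at wild-type means of 12.36 and 12.14. Probe set 253010_at read 12.06, 12.10, 12.20 and 12.22 in wild type, 11.89, 12.26, 11.88 and 12.19 in seu, 11.16, 10.63, 10.72 and 10.98 in ant, and 9.49, 9.78, 10.45 and 10.02 in seu ant. Here wild type and seu were mixed, and ant and seu ant followed as separate steps below them, at 41.4% and 21.6% of wild type (seu ant minus ant -0.94 ± 0.18, adjusted p = 0.00225). The paper's own values for ANT had the same order, near wild type in seu, lower in ant and lowest in seu ant. This probe set may therefore measure ANT itself, which was not tested, and its loss is not read as downstream of ANT. For 254203_at, 255609_s_at, 260329_at, 254405_at and 266415_at the differences between seu ant and ant ran from -1.18 to -0.37.

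TBL36 showed the largest loss in ant and the opposite order of the mutants. It belongs to the TRICHOME BIREFRINGENCE-LIKE family, whose characterised members acetylate polysaccharides of the cell wall. Its log2 signal was 8.80, 8.73, 9.12 and 8.96 in wild type and 8.86, 8.71, 8.69 and 8.52 in seu. In ant it was 6.94, 6.84, 6.56 and 6.24, and in seu ant it was 8.70, 7.91, 7.69 and 8.13. All seu ant arrays were above all ant arrays, and 1 of them reached the seu range. The signal was 20.9% of wild type in ant but 57.6% in seu ant, a difference of 1.46 ± 0.20 (SE, limma adjusted p = 0.000247), and it stood 1.67 ± 0.28 above the additive value (adjusted p = 0.00806).

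The same order was found in AT4G38090 and AT1G74150, both annotated as unknown proteins. AT4G38090 was 9.52, 9.07, 9.33 and 9.33 in wild type, 9.09, 9.04, 9.20 and 9.45 in seu, 7.92, 7.70, 7.71 and 7.96 in ant, and 8.72, 8.50, 8.59 and 8.69 in seu ant. The 3 levels were separate, with wild type and seu together at the top, seu ant between and ant at the bottom. The difference between seu ant and ant was 0.80 ± 0.11 (adjusted p = 0.000234), and the departure from additive was 0.92 ± 0.15 (adjusted p = 0.00798).

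AT1G74150 was 7.89, 7.81, 7.99 and 7.51 in wild type, 7.18, 7.52, 7.36 and 7.61 in seu, 6.82, 6.58, 6.78 and 6.44 in ant, and 7.03, 7.27, 7.09 and 6.96 in seu ant. Its ant arrays were all below its seu ant arrays, by 0.43 ± 0.12 on average (adjusted p = 0.0234), with a departure from additive of 0.81 ± 0.17 (adjusted p = 0.0214). The first call is lost under median centring, under quantile normalization, and without ant replicate 2 or 4 or seu ant replicate 2. The fourth member called higher in seu ant was probe set 259188_at, at 42.4% of wild type in ant and 61.4% in seu ant.

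Of 6 marker genes of green tissue, RCA and PRK had a probe set paired with 1 gene. Both were called higher in seu ant than in ant, by 0.73 and 1.39. Of all probe sets 9.7% were called higher, and 11.6% of those with a wild-type mean of at least 7. Their summed linear signal was lowest on the ant arrays, at 2194 to 2938, and highest on the seu ant arrays, at 3512 to 6850, with wild type at 3092 to 4310 and seu at 2817 to 3444. Of 5 stomatal lineage genes 3 were measured. Their sums were 203.3 to 433.7 on the seu ant arrays and 107.5 to 189.3 on the ant arrays. The wild-type sums were 62.0 to 109.4 and the seu sums 105.3 to 160.3. MUTE and FMA were near the floor, with mean log2 signals of at most 4.39 and 4.90 and floor values in every genotype. The differences between these sums therefore came mainly from SPCH. Its mean log2 signal was 5.02 for wild type, 6.55 for ant, 6.68 for seu and 7.63 for the double mutant. SPCH was called higher than wild type in seu ant. The anther genes AMS and A9 and the ovule genes INO and SPL/NZZ were at or near the floor in all genotypes, with sums of at most 78.8. None of the 6 gynoecium markers and none of the 3 petal, stamen and sepal identity genes had such a probe set, so the labelled tissue was not checked against them. The part of these cells in the values of the members was not tested.

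**Figure D4:**
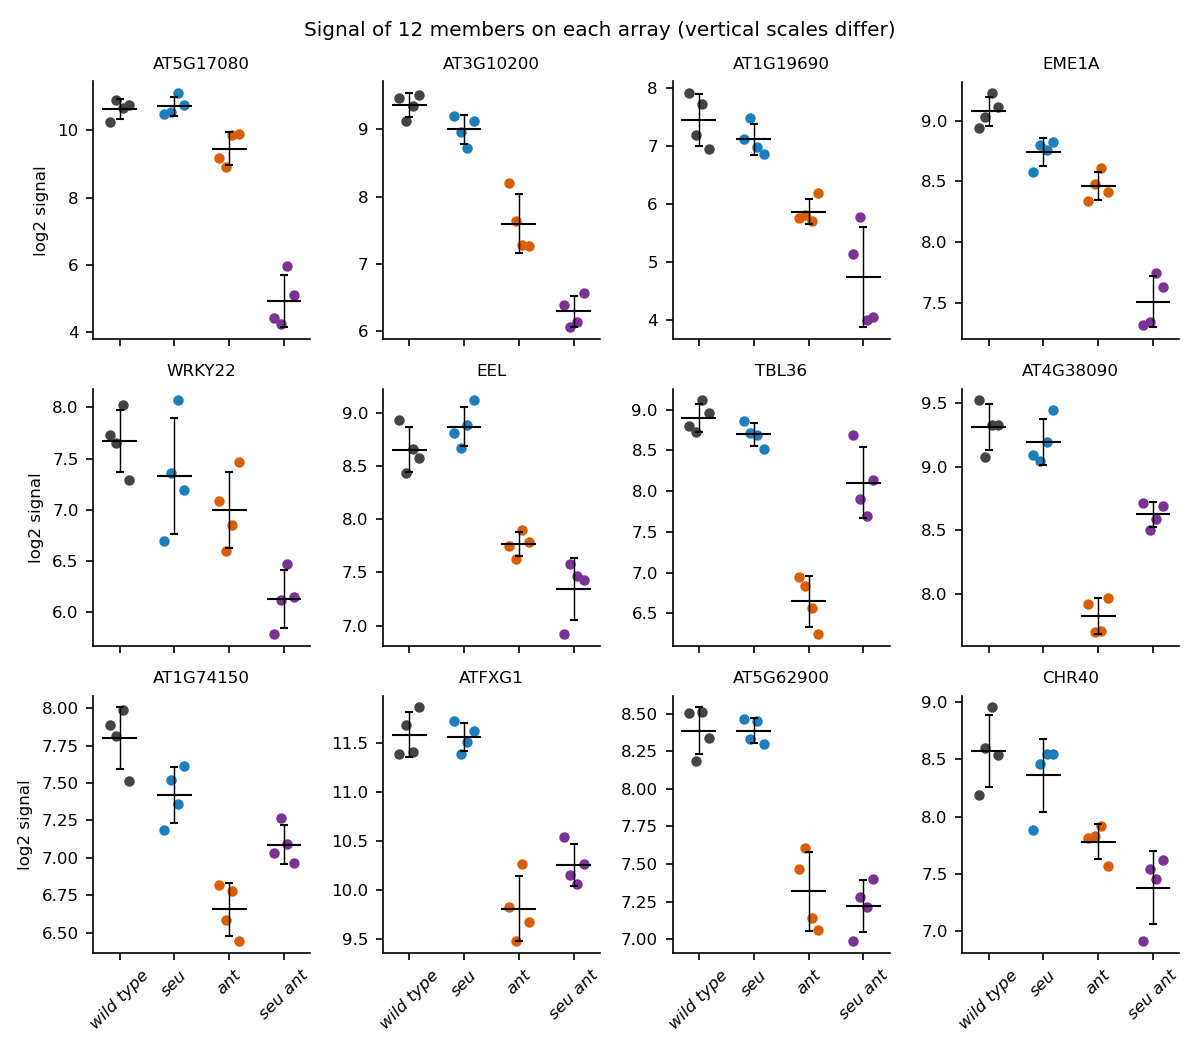
Log2 signal of 12 members on each array (points) in the 4 genotypes, with the mean (bar) and SD (whiskers, n = 4). Vertical scales differ between panels. In AT5G17080, AT3G10200, EME1A, WRKY22 and EEL the seu ant arrays are lowest, and in AT1G19690 they overlap with ant. In TBL36, AT4G38090 and AT1G74150 the ant arrays are lowest.

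For 60 members, 34 of them with 1 gene, seu ant and ant were not called different. This does not show that they were equal, since the 95% interval of the difference reached beyond 0.6 in either direction for 35 of them and lay within it for 25. ATFXG1, named as an alpha-fucosidase of xyloglucan in the cell wall, was the brightest named member. Its log2 signal was 11.39, 11.69, 11.41 and 11.87 in wild type, 11.72, 11.39, 11.52 and 11.62 in seu, 9.83, 9.48, 10.26 and 9.67 in ant, and 10.54, 10.15, 10.06 and 10.26 in seu ant. Wild type and seu overlapped fully, and ant and seu ant overlapped at 29.1% and 39.7% of wild type (difference 0.45 ± 0.16, adjusted p = 0.0738).

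AT5G62900 and AT4G39235, which have no annotated function in the sources used here, came closest to an equal loss among the named members with large falls in ant. AT5G62900 was 8.51, 8.19, 8.51 and 8.34 in wild type, 8.46, 8.33, 8.45 and 8.30 in seu, 7.47, 7.61, 7.14 and 7.06 in ant, and 6.99, 7.28, 7.22 and 7.40 in seu ant. Wild type and seu lay in the same range and the ant and seu ant arrays were interleaved below it. The 95% interval of seu ant minus ant was -0.37 to 0.17 and that of seu minus wild type was -0.27 to 0.27. The rule used these same means, and the gene was singled out for its near-equal losses. The intervals take no account of that choice and are a description only. For AT4G39235 the means of ant and seu ant were 8.02 ± 0.52 and 7.99 ± 0.27, below 9.09 ± 0.12 in wild type and 8.75 ± 0.08 in seu (SD, n = 4), with an interval of -0.48 to 0.42 between seu ant and ant. Among the members with no gene name, 264525_at had the deepest loss in ant, with 9.61, 9.47, 9.65 and 9.12 in wild type, 9.39, 9.19, 9.33 and 8.99 in seu, 7.28, 6.86, 7.61 and 7.39 in ant, and 7.81, 8.38, 7.43 and 7.76 in seu ant. Its ant and seu ant arrays overlapped at 22.1% and 32.6% of wild type. AT1G49650 stood at 45.3% of wild type in ant and 63.9% in seu ant, and that difference of 0.50 ± 0.21 was not called (adjusted p = 0.127).

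EEL, a bZIP transcription factor known from abscisic acid responses and gene control in the maturing seed, was at 8.93, 8.44, 8.66 and 8.57 in wild type, 8.81, 8.67, 8.88 and 9.11 in seu, 7.75, 7.62, 7.90 and 7.78 in ant, and 6.92, 7.58, 7.46 and 7.42 in seu ant. It is among the 13 members above wild type in seu, and the seu ant arrays were all just below the ant arrays. The difference between seu ant and ant was -0.42 ± 0.14 and did not pass the test (adjusted p = 0.0587). EEL was the 1 gene measured of a list of 29 genes of abscisic acid and dehydration response.

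CHR40, also called CLASSY 4, encodes a chromatin remodeller of the family that guides RNA polymerase IV to the sites of small RNA production for DNA methylation. Its log2 signal was 8.19, 8.60, 8.95 and 8.54 in wild type, 7.89, 8.46, 8.55 and 8.55 in seu, 7.82, 7.83, 7.92 and 7.57 in ant, and 6.91, 7.54, 7.45 and 7.62 in seu ant. The ant and seu ant arrays lay below wild type and overlapped with each other, at 57.9% and 43.8% of the wild-type signal (difference -0.40 ± 0.20, adjusted p = 0.178). In a list of 32 genes of DNA methylation and small RNA silencing, 5 were measured, 1 was called lower in ant, and 3 were called lower and 1 higher in seu ant. The relatives of CHR40 had other patterns. CLSY3 differed from wild type by 0.03 in ant and by -2.14 in seu ant, and CLSY2 by -0.91 in ant, which was not called, and by 1.34 in seu ant, which was.

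None of the 40 measured genes in the other 7 functional lists was a member. Of the 13789 probe sets paired with 1 gene only 42 are members, so hardly any would be expected among 40 genes, and nothing is read from this. These lists held light harvesting and chlorophyll synthesis, dark and sugar starvation response, the circadian clock, flower and gynoecium regulators, organ growth and cell proliferation, auxin, and CCCH zinc finger genes of the stress response. Only 1 clock gene and no CCCH zinc finger gene was measured. Only 13789 of the 22746 probe sets are paired with 1 gene, so most genes of these lists were not measured by this route.

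A few more members, picked after their values were seen, carry annotations that relate to DNA, to metal binding or to the cell surface. RAD4, the plant relative of a yeast protein that recognises damaged DNA in nucleotide excision repair, stood at 64.4% of wild type in ant and 57.4% in seu ant. AT3G12040, annotated as a DNA-3-methyladenine glycosylase, an enzyme that removes alkylated bases, stood at 48.4% and 38.9%. AT1G56210, annotated as related to a copper chaperone, stood at 48.8% and 61.2%, AT5G61120, annotated as zinc ion binding, at 53.5% and 52.8%, and AT2G01210, a putative leucine-rich repeat transmembrane kinase, at 63.6% and 50.7%. For none of these 5 were seu ant and ant called different.

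**Figure D5:**
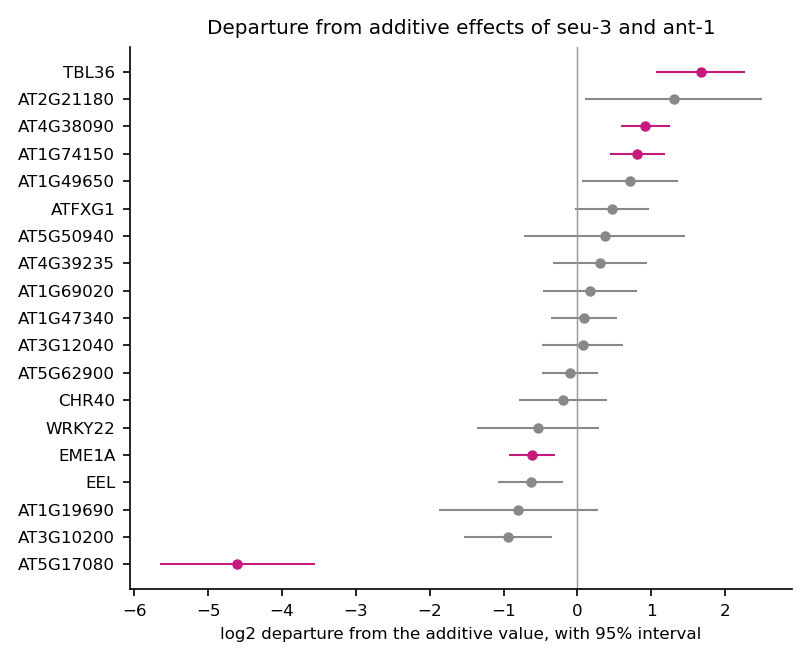
Departure of the double mutant from the additive value on the log2 scale, with 95% intervals, for the 19 members named by rule. Pink marks an adjusted p under 0.05. AT5G17080 (-4.60) and EME1A (-0.62) lie below 0, and TBL36 (1.67), AT4G38090 (0.92) and AT1G74150 (0.81) lie above it.

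The choice of members leaned on single arrays. When each of the 16 arrays was left out in turn and the means were taken again, 19 of the 75 members met the rule every time, and 11 of these are paired with 1 gene, namely TBL36, ATFXG1, AT4G38090, AT5G17080, AT2G16760, AT5G62900, AT4G39235, AT5G17850, AT5G61120, EEL and CHR40. The fewest members, 53, were left without wild-type replicate 3, and 56 were left without ant replicate 2, against 73 without seu replicate 1 or seu ant replicate 2.

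The place of AT4G27280 rested on 1 high wild-type and 1 high seu array. Its log2 signal was 8.74, 8.86, 12.51 and 8.97 in wild type and 8.78, 8.70, 11.63 and 8.51 in seu, while the ant arrays ran from 8.02 to 8.92 and the seu ant arrays from 8.69 to 8.83. Without wild-type replicate 3 the difference from wild type is -0.28 in ant and -0.10 in seu ant, and without seu replicate 3 the seu difference is -1.11. It failed the rule in 5 of the 16 omissions, those of each wild-type array and of seu replicate 3. The unnamed probe set 251745_at had the same 2 arrays high, at 9.23 against 6.74 to 7.00 in the other wild-type arrays and at 9.05 against 6.50 to 6.97 in the other seu arrays. Probe set 246253_at also had them highest, at 11.47 and 11.53. None of these 3 members was called lower in ant or in seu ant.

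Another uncertain member is AT2G21180, with 7.69, 6.86, 7.27 and 7.68 in wild type, 7.03, 7.07, 6.60 and 7.30 in seu, 5.43, 5.46, 5.92 and 5.50 in ant, and 7.10, 7.33, 6.53 and 5.07 in seu ant. The ant arrays were uniformly low, while 3 of the seu ant arrays were in or near the seu range and 1 was below ant. Without seu ant replicate 4 the difference of seu ant from wild type is -0.39, which would not meet the rule, and that of seu ant from ant rises from 0.93 to 1.41. Probe set 252937_at was at the floor on 2 ant arrays and at 6.19 and 7.40 on the other two, so its mean difference of -1.77 in ant joins unlike arrays.

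Values near the limits show how sharp the cut is. Just inside were AT5G50940 with a wild-type mean of 7.08, AT1G47340 with -0.602 in ant, AT1G69020 with -0.64 in seu ant, and AT3G12040 with -0.389 in seu. Just outside the wild-type limit were AT3G08570, whose mean rounds to 7, and AT5G15070 with a mean of 6.94. Outside the other limits were AT2G20515 with -0.596 in ant and AT4G32750 with -0.59 in seu ant. So was UGT76C2, an enzyme that glucosylates cytokinins, with -0.404 in seu. UGT76C2 differed from wild type by -0.65 in ant and by -2.01 in seu ant.

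Beyond their signal the members shared little that the files could show. Wild-type means ran from 7.08 to 12.36 with a median of 8.50, and 14 members had a mean of at least 10. The member genes lay on all chromosomes, with 9 on chromosome 1, 9 on chromosome 2, 8 on chromosome 3, 5 on chromosome 4 and 11 on chromosome 5. In this order the shares were 21.4, 21.4, 19.0, 11.9 and 26.2% of the member genes. Of the genes named on the array they were 26.1, 15.3, 19.9, 15.1 and 23.0%. No pair of members had fewer than 10 protein-coding genes between them in the TAIR10.1 gene order. The spread of the members between arrays was somewhat larger in the mutants that lost signal, with a median SD of 0.31 in ant and 0.30 in seu ant against 0.23 in wild type and 0.21 in seu. It was not compared with the spread of other probe sets or at equal signal, so it is not read as a trait of the members.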

How the data were processed

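The deposited values are MAS5 intensities on a linear scale, which the authors scaled to a common mean per array, as their notes and the values show. The authors' own tests used loess-normalized values in other software, not used here. After AFFX controls had been removed, signals below a floor of 16 were raised to it and converted to log2. The 22746 probe sets on 16 arrays were fitted in limma 3.58.1 (R 4.3.3) with 1 mean per genotype and adjusted by Benjamini-Hochberg over all of them, after tests on simulated data. Genotypes came from the labels, and replicate numbers follow the order of the records and pair nothing. The number of arrays limits the precision. Gene names came from the platform annotation through the RefSeq gene table, and for 1 member from the paper's probe table, whose columns of comparisons were not used. Members and lists were chosen with earlier results of these data known. Named genes were members with 1 gene that had the largest falls in ant on all arrays, the largest called differences or departures, a place in a list, or a value next to a limit. Figures were drawn with matplotlib 3.10.9. Alternatives changed the floor, the scaling, the filter, the moderation, the samples fitted and single arrays, and set the arrays with lower and higher title numbers as a block.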

Additional observations from a re-analysis of the deposited data

Results flagged for a closer look

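In 5 members the effect of ant-1 in a seu background differed from its effect in a wild-type background, by limma's adjusted p under 0.05 for the difference itself. The 4 genotype means in this difference also chose the members, so the values are a description and support nothing. The 2 members with a negative difference are 2.67% of the 75 and the 3 with a positive one 4.0%, where 2.33% and 2.78% of all probe sets were called, and 4.11% and 3.91% of those with a wild-type mean of at least 7. The difference between the effects was -4.60 log2 units for AT5G17080 and -0.62 for EME1A, which lost more signal through ant-1 when seu-3 was present. It was 1.67 for TBL36, 0.92 for AT4G38090 and 0.81 for AT1G74150, which lost less. Without some single arrays only 1 negative difference was called.

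Among 76 groups of 4 arrays examined for the 19 named members, 2 held an array far from the others, and about 1 in 20 groups is expected to do so by chance. AT2G21180 in ant had 1 array at 5.92 with the next at 5.50, and CHR40 in seu had 1 array at 7.89 with the next at 8.46.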

How the results depend on the processing

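Settings other than single arrays moved 7 counts by more than 1.5 times. With each array centred on its median, which takes the ant arrays up by 0.16 against wild type, the members called lower in ant went from 49 to 30 and those below additive from 2 to 4. Leaving out dim probe sets also gave 4 below additive. With only the genotypes compared in the fit, 22 members were called lower in ant and 7 lower in seu ant than in ant. An unadjusted p under 0.05 gave 7 members below and 9 above additive. Leaving out 1 array at a time gave 7 to 11 members lower and 2 to 6 higher in seu ant than in ant, 1 to 4 below and 3 to 5 above additive, 29 to 50 called lower in ant, 53 to 62 called lower in seu ant and 0 called in seu. With the members chosen again without 1 array there were 60 to 96, of which 7 to 13 were lower in seu ant than in ant. Chosen again after median centring there were 53 members, 40 of them among the 75, and after quantile normalization 62, 50 of them among the 75. The median difference between seu ant and ant stayed between -0.15 and -0.03. For the named genes, 450 of 475 alternative values kept their side of the threshold, 19 lost the call, 6 gained it and none reversed. No paired analysis was possible because the labels give the genotypes no shared replicate numbers; the block of title numbers changed no count by more than 1.5 times. The cause was not tested for any of these changes.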
